A study of Rattus norvegicus with 4 samples.

Results

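The genes described here carry the signal of bacterial endotoxin (lipopolysaccharide) and of other Toll-like receptor ligands across and below the macrophage membrane: the endotoxin-handling proteins Cd14, Ly96 and Lbp, the adaptors Myd88, Tirap and Ticam1, the kinases Irak1, Irak3 and Irak4, and the ubiquitin ligase Traf6. These 10 genes were chosen by name, and 8 of them had a probe whose accession matched their symbol, with 10 probes in all, out of 16506 named genes on the array. Tirap and Ticam1 had no named probe and are not analysed here. The cells were NR8383, an established line of alveolar macrophages washed from the lung of a normal rat, of which a part adheres and a part floats in culture. There was 1 group of 4 biological replicates. After 20 passages in medium with 15% fetal bovine serum, cells seeded for 48 h in flasks of 25 cm2 were held for 4 h in DMEM with 10% fetal bovine serum, a condition the labels mark with the letters ALI, which are not interpreted here. No endotoxin or other agent was added according to the labels, and there was no other group, so the measurements answer which of these genes the line expressed at rest and how closely the replicates matched. Each replicate was 1 single-colour array, and 1 established line limits the group as a model of macrophages in the lung.

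Lipopolysaccharide is lifted from bacterial membranes by Lbp, a plasma protein made mainly by the liver, and passed to Cd14, which loads it onto the complex of Tlr4 and Ly96 (MD-2). The receptor then recruits Tirap and Myd88, whose death domains assemble Irak4 and Irak1 into a signalling platform, and Traf6 carries the signal on by building ubiquitin chains that activate the kinase complexes upstream of NF-kB. Ticam1 (TRIF) serves a separate route from the endosome toward interferon genes, and Irak3 (IRAK-M), found largely in monocytes and macrophages, restrains the Myd88 route.

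The scanner software flagged as well above background between 50.9% and 58.9% of each array's 58717 rat spots, and the 75th percentile of signal ranged from 83.4 on the dimmest array, replicate 1, to 167 on replicate 4. A level below is therefore the log2 of a probe's signal divided by the 75th percentile of its array, as mean ± SD over 4 arrays. Probes differ in how strongly they bind, so the level of one gene is not set against that of another. A gene was called detected where a probe was well above background on all 4 arrays. Of 9 measured macrophage markers 8 were detected, among them the lysosomal glycoprotein Cd68 at 7.44 ± 0.17 and the growth factor receptor Csf1r at 1.83 ± 0.39. The exception, Mertk, was well above background on 3 arrays. None of 7 neutrophil markers was detected, nor were the epithelial marker Epcam or the fibroblast gene Col3a1. Genes detected from the lists of other cells were Tf of 10 hepatocyte genes, Foxj1 of 8 epithelial genes, and Col1a2 and Dcn of 7 fibroblast genes. Of 6 lymphocyte genes Cd3d, Cd4 and Nkg7 were detected. A listed gene need not be particular to its cell type, and 53.1% of all named genes were detected.

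Of the 8 measured members 7 were detected, where 53.1% of all named genes were. The exception was Lbp. The same 7 passed a limma test that asked whether a probe exceeded the negative control spots, taken at their 95th percentile and called the control limit below (one-sided, adjusted over all probes), a test that 68.7% of named genes passed. With 8 genes chosen by name, and with earlier results of these data known, these counts are a description of the members. They were not tested against other genes.

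Promoter sequence is shown for Myd88 and Irak4, the 2 members whose levels moved most alike over the arrays among those with a promoter in the RefSeq table of the GRCr8 assembly (root mean square difference of their deviations 0.07 on the log2 scale). The table held 6 of the 10 members. The 250 bases before each annotated start read 5′ to 3′ on the gene's strand, with capitals for matches to the motifs searched, and lie at chr8:127956231-127956480 on the minus strand for Myd88 and at chr7:127561527-127561776 on the plus strand for Irak4.
Myd88: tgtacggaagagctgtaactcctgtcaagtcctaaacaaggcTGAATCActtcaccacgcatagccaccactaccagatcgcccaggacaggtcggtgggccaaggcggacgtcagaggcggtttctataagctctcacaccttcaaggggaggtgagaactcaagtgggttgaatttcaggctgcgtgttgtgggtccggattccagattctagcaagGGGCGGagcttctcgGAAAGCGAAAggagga
Irak4: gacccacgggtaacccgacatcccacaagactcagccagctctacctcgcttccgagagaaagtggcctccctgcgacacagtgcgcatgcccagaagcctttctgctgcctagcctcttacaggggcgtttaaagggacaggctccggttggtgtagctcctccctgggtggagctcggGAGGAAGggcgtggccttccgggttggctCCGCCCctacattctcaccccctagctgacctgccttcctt
The Myd88 window held a match to TGANTCA, the AP-1 motif, from 208 to 202 bases before the start, which 6.34% of 33469 promoters of this length hold. It held the GC box GGGCGG (30.5% of promoters) and, from 16 to 7 bases before the start on the opposite strand, the interferon response motif, TTTC followed after 2 bases by TTTC (3.41%). The Irak4 window held the core of the motif of the myeloid factor PU.1, GAGGAAG (10.2%), and a GC box on the opposite strand. Also searched on both strands, with no match in either window and no overlap among the matches shown, were the NF-kB motif, GGGA followed after 2 bases by TTCC (1.08%), and the cAMP response motif TGACGTCA (1.59%), TATAAA (12.9%) and CCAAT (34.0%). A match describes letters only, and the arrays do not measure binding.

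The proteins that hold endotoxin for the receptor were transcribed in part. Ly96, the receptor's lipid-binding partner, was detected by both of its probes, with processed signals of 397, 550.5, 619 and 913 on replicates 1 to 4 for the first probe and of 411, 632, 705 and 953 for the second. After scaling, the gene lay at 2.28, 2.40, 2.39 and 2.48, a mean of 2.38 ± 0.08 (SD, n = 4). The arrays lay within 0.20 log2 units of each other, and the deviations of the 2 probes differed by a root mean square of 0.07. Under normexp on median signals the SD was 0.20, with replicate 1 at 0.37 below the others.

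Cd14, the membrane-anchored co-receptor, gave signals of 192, 517, 506 and 632 on its single probe, between 59.1 and 176 times the control limit. Its level was 1.20 on replicate 1 and 2.21, 2.00 and 1.92 on replicates 2 to 4, a mean of 1.83 ± 0.44. Replicate 1 thus read lower than each of the others, at 0.56 times their mean. Without replicate 1 the SD was 0.15.

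Lbp was not well above background on any array, which was so for 34.4% of all named genes. Its signals were 3.16, 3.60, 3.07 and 2.66, between 0.74 and 1.08 times the control limit, and 1 array passed the looser positive-and-significant flag. Its probe lay at -0.09 ± 0.17 (SE) log2 units from that limit, and limma did not call it above (adjusted p = 0.87). Of 10 hepatocyte genes, listed because Lbp is a liver product, 7 were also well above background on no array, among them Alb and Ttr. Lbp was read by 1 probe, whose response to its transcript was not checked, so absence of the transcript is not shown. The array says nothing of the protein that serum may supply.

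The shared adaptor Myd88, which links Toll-like and interleukin-1 receptors to the Irak kinases, gave signals of 2646, 4153, 5219.5 and 6122 on its single probe, between 815 and 1702 times the control limit. Its levels were 4.99, 5.21, 5.37 and 5.19, a mean of 5.19 ± 0.16. Replicate 1 was the lowest array, 0.27 below the mean of the others, and replicate 3 the highest, 0.24 above. Under normexp on median signals replicate 1 lay 0.081 above the others instead, and the SD was 0.30. The range was 0.38 log2 units, well under that of Cd14.

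**Figure D1:**
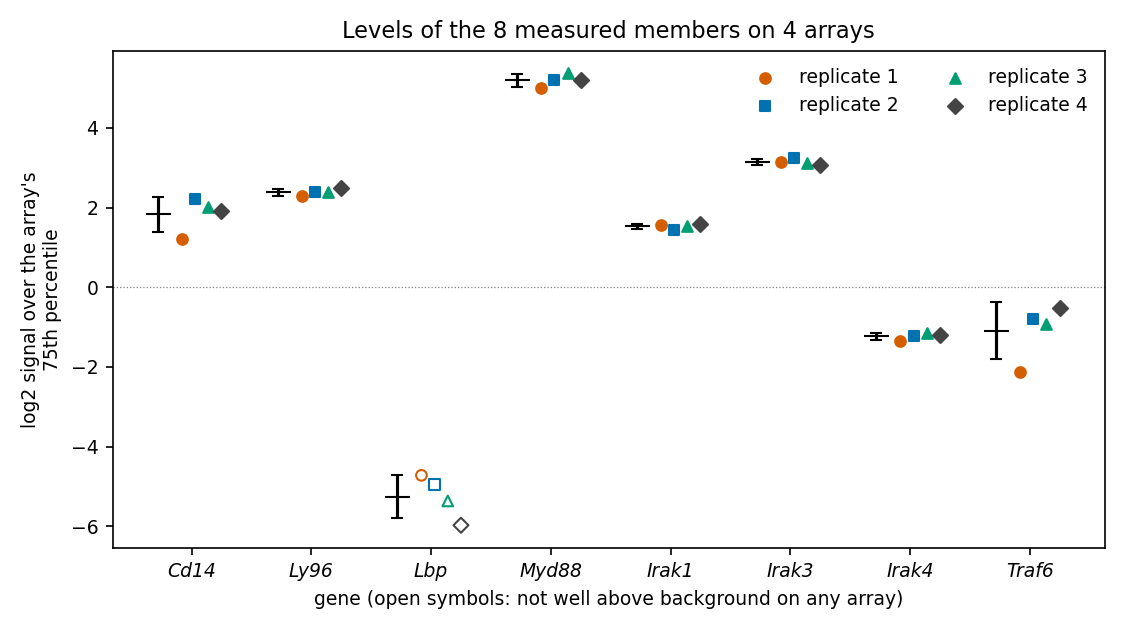
Level of each of the 8 measured genes (vertical axis, log2 of signal over the 75th percentile of the array) on replicates 1 to 4 (symbols), with the mean and SD over the 4 arrays as a bar at the left of each gene. Replicate 1 sits apart from the other arrays for Cd14 (1.20) and Traf6 (-2.14), and Lbp, in open symbols, was not well above background on any array.

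The 3 Irak genes differed little between arrays. Irak4, the kinase that starts the cascade by phosphorylating its relatives, gave signals of 32.8, 47.6, 56.6 and 72.8, between 10.1 and 20.2 times the control limit. Its levels were -1.35, -1.24, -1.16 and -1.20, a mean of -1.24 ± 0.08. All arrays thus lay within 0.19 log2 units.

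Irak1, the substrate of Irak4 that hands the signal to Traf6, was read by 2 probes made from different transcript models. The probe for the curated transcript gave signals of 322, 455, 524 and 679, and the probe for a predicted transcript gave 186, 202, 253 and 369. Averaged, the gene lay at 1.56, 1.44, 1.53 and 1.58, a mean of 1.53 ± 0.06. The probes did not move alike: replicate 2 lay 0.02 above the mean of the other arrays on the first probe and 0.25 below it on the second. The SD was 0.04 for the first and 0.14 for the second.

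Irak3, the inhibitory relative, gave signals of 737, 1066, 1100.2 and 1401, between 227 and 389 times the control limit. Its levels were 3.14, 3.25, 3.12 and 3.07, a mean of 3.15 ± 0.08. The transcript of a restraining kinase was thus present in cells given no endotoxin, and no array stood apart, with an SD of 0.15 under normexp.

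Traf6, the ubiquitin ligase below the Irak kinases, varied most among the members under the main processing. Its single spot gave signals of 19.0, 64.9, 66.5 and 116, or 5.85, 19.5, 21.7 and 32.2 times the control limit. Its levels were -2.14, -0.79, -0.93 and -0.53, a mean of -1.09 ± 0.71. Replicate 1 was 0.38 times the mean of the others, and replicate 4 the highest. The software's own error for the spot was 16.3% of its signal on replicate 1 and at most 11.3% on any other array. For a bright spot such as that of Myd88 it was 10.0% on replicate 1. The error is given per array and does not measure the spread between arrays. Without replicate 1 the SD was 0.20. The value rests on a dim spot: on replicate 1 the median pixel was 46.0 over a local background of 29.0. With normexp background correction of the median signals, run with an added constant of 50, replicate 1 lay 0.37 below the others in place of 1.39. Adding a constant by itself narrows log2 gaps between dim signals, and its share in this change was not tested. In the same normexp run the SD of Traf6 was 0.29, below those of Cd14 (0.37) and Myd88 (0.30).

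Between arrays, 5 of the 7 detected members varied less than the median detected gene, and Cd14 and Traf6 varied more. The median SD of the members was 0.08, and that of all 8772 detected genes was 0.24 (interquartile range 0.15 to 0.36). Without replicate 1 the medians were 0.09 and 0.15. The SD of Irak1 was at percentile 2.84 of all detected genes, of Irak3 at 5.51, of Irak4 at 5.91, of Ly96 at 6.75 and of Myd88 at 26.6, while Cd14 was at 85.1 and Traf6 at 96.9. The low spread depended on the processing: under normexp the members' median SD was 0.20 and that of all detected genes also 0.20. That run changed the background correction and also used median in place of processed signals, and these changes were not tested apart. Traf6 exceeded the 95th percentile of SD by little (0.713 against 0.711) among the 877 detected genes of its own band of levels, of 10 bands of nearly equal size, and Irak4, in the same band, had 0.08 where the median was 0.30.

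**Figure D2:**
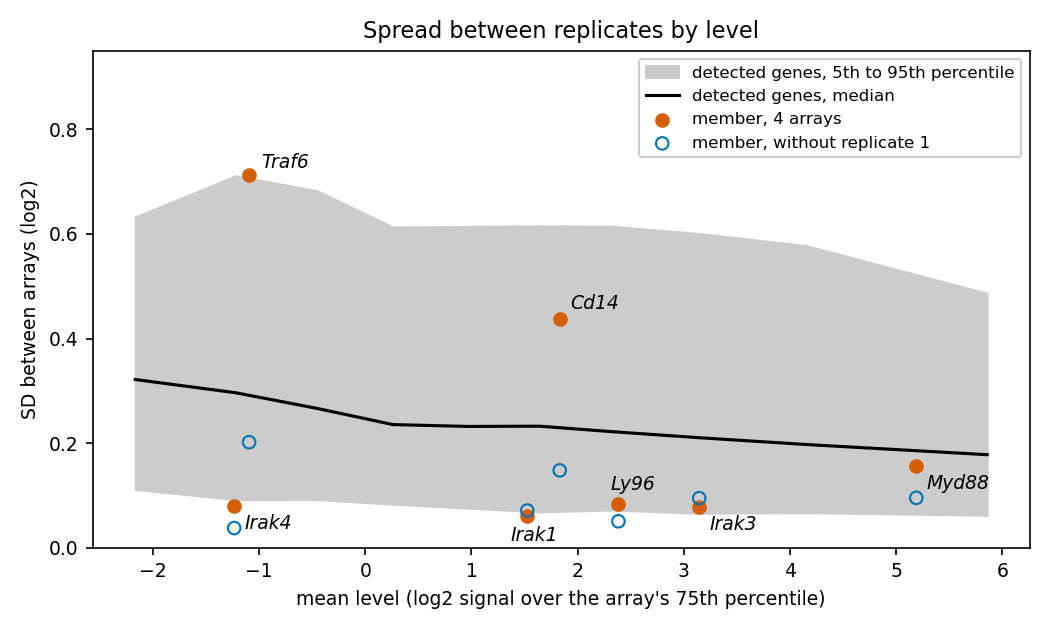
SD between arrays (vertical axis, log2) against mean level (horizontal axis, log2 of signal over the 75th percentile of the array) for the 7 detected members on 4 arrays (filled) and without replicate 1 (open), over the median and the 5th to 95th percentile of all detected genes by band of level. Traf6 (0.71) and Cd14 (0.44) lie above the median line, the other 5 members at or below 0.16.

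Replicate 1 was the lowest array for 5 of the 7 detected members, Cd14, Ly96, Myd88, Irak4 and Traf6, where it was the lowest for 32.8% of all detected genes. For Ly96 and Irak4 the gap to the mean of the others was 0.14 and 0.15, for Cd14 it was 0.84 and for Traf6 1.39. Irak1 and Irak3 lay within 0.04 of the mean of the others on replicate 1. The Irak1 value there averages 2 probes on opposite sides, at -0.083 for the curated transcript and 0.162 for the predicted one. The order depended on scaling and signal processing: under normexp 3 members were lowest on replicate 1, where 35.4% of all detected genes were. Under quantile normalization or a percentile over detected probes 6 members were, where 36.6% and 39.7% of all detected genes were. No detected member was highest on replicate 1, whereas 42.3% of all detected genes were. Only Traf6 was at least 1 log2 unit lower there, as were 2.54%, and none was at least 1 log2 unit higher, whereas 4.16% were. The cause of the low Cd14 and Traf6 readings was not tested. Detected probes within 8 rows and columns of the Cd14 spot lay at a median of 0.09 on replicate 1 relative to the other arrays, and around the Traf6 spot at 0.12. The median over all detected genes of the array was 0.07.

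Among genes of the same pathway, Irak2, the relative of Irak1 that sustains Traf6 signalling, showed a gap close in size to that of Traf6. It lay at 0.53 on replicate 1 and at 2.18, 1.90 and 1.88 on replicates 2 to 4, a mean of 1.62 ± 0.74, and its SD without replicate 1 was 0.16. Tlr2, the receptor for bacterial lipoproteins, lay at 4.32 against 5.07, 4.91 and 4.89. Tlr4 itself was not lower, at 1.49 on replicate 1 and 0.95, 0.95 and 1.29 on the others. Over the 43 detected genes of the wider pathway replicate 1 lay at a median of 0.03, with 12 lowest (27.9%) and 18 highest (41.9%) on that array and 19 below the mean of the others (44.2%). These shares lie near those of all detected genes, 32.8%, 42.3% and 44.2%, so the counts are not a result about the pathway.

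**Figure D3:**
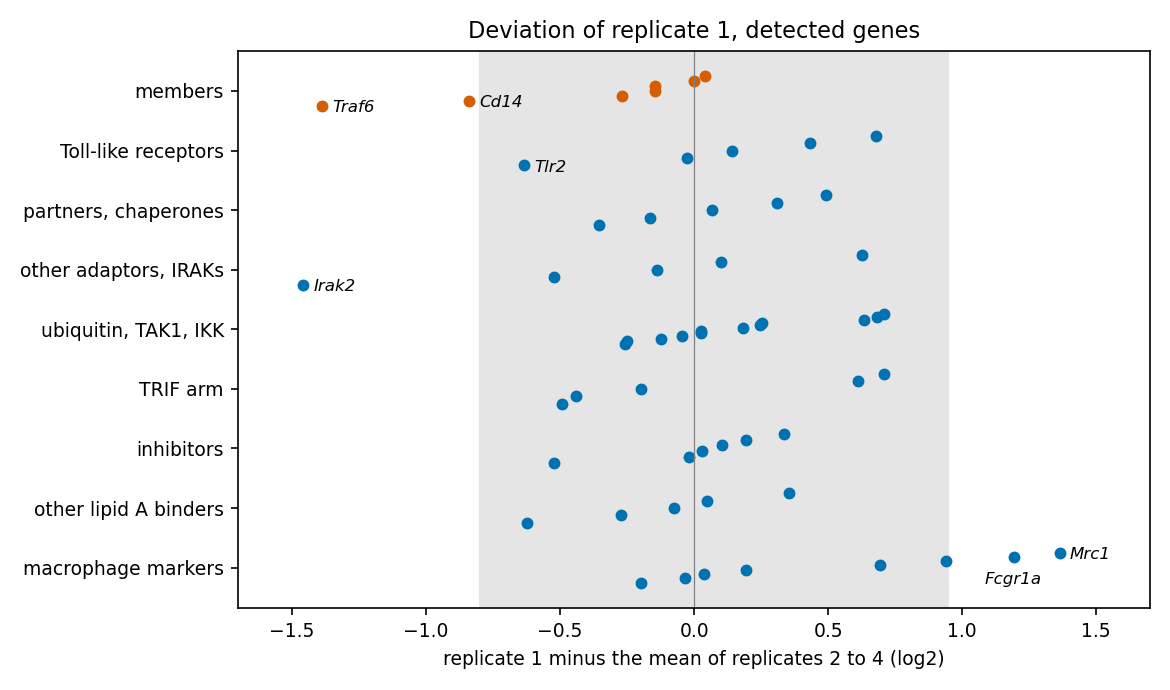
Replicate 1 minus the mean of replicates 2 to 4 (horizontal axis, log2) for the detected members (top row) and the detected genes of each pathway and macrophage marker list (1 point per gene), over the 5th to 95th percentile of all detected genes in grey (-0.80 to 0.95). Traf6 (-1.39), Irak2 (-1.46) and Cd14 (-0.84) lie to the left of the grey band, and the macrophage markers Mrc1 (1.36) and Fcgr1a (1.19) to its right.

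Some macrophage markers read higher on that array. Of 8 detected markers 5 were highest on replicate 1, where 42.3% of all detected genes were, with a median of 0.44 above the mean of the others. Cd68 and Adgre1 lay at -0.03 and 0.04 and the transcription factor Spi1, lowest there, at -0.20. The summed linear level of the 9 measured markers, in multiples of the array's 75th percentile, was 858 there, against 662 to 739 elsewhere. Such a sum is weighted toward the brightest genes, here Lyz2 (8.93 on replicate 1), and does not show a rise of every marker. The sum over all named genes was also highest on replicate 1, at 159361 against 134914 to 148790. The mannose receptor Mrc1 and the Fc receptor Fcgr1a, named after their values were seen, were 1.36 and 1.19 higher. Whether this shift had a part in the Cd14 and Traf6 values was not tested, and replicate 1 was also the array of lowest signal. In RNA from a whole culture, fewer cells of a kind and less transcript per cell cannot be told apart.

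The rest of the pathway was detected in 43 of 57 measured genes (65 were listed), 75.4%, where 53.1% of all named genes were. The pathway lists were chosen with earlier results of these data known. This share and those of the single lists below are therefore descriptions and were not tested. Of 11 measured Toll-like receptors 5 were detected (45.5%, below that share of all named genes). They included Tlr4, Tlr2 and its partner Tlr6 at 1.62 ± 0.09, whereas Tlr1 and Tlr10 were well above background on no array. Of the receptor partners and chaperones 5 of 6 were detected, with Cnpy3 and Hsp90b1, the chaperones that fold Toll-like receptors, at 4.51 ± 0.25 and 3.67 ± 0.50 and the scavenger receptor Cd36 at 4.56 ± 0.18. Cd180, a receptor related to Tlr4, was well above background on no array.

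Downstream of the members all measured genes of both lists were detected, where 53.1% of all named genes were. Of 14 genes listed, all 12 measured genes of ubiquitin transfer and the TAK1 and IKK kinases were detected, with Ube2n and Ube2v1, the enzymes that work with Traf6, at 2.32 ± 0.16 and 3.32 ± 0.23 and the TAK1 partner Tab1 at 2.17 ± 0.17. Of 6 listed genes of the TRIF arm all 5 measured ones were detected as well, with the kinases Tbk1 at -1.62 ± 0.24, Ikbke at 1.69 ± 0.37 and Ripk1 at 2.68 ± 0.26. Ticam2 (TRAM), the bridge from Tlr4 to Ticam1, lay at 1.55 ± 0.32 and Pik3ap1, which links Toll-like receptors to phosphoinositide signalling, at 0.22 ± 0.28, while the adaptor Sarm1 was well above background on no array.

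Of genes listed as inhibitors or other modulators of the pathway, 6 of 11 measured were detected. This share, 54.5%, lies near the 53.1% of all named genes, so the count is not a result about them. They included Tollip, which binds Irak kinases, at 3.17 ± 0.27, the ubiquitin ligase Peli1 at -0.15 ± 0.20 and the deubiquitinase Cyld at -0.72 ± 0.13. The receptor Sigirr and Peli2 were well above background on no array. Of genes listed as other binders or processors of lipid A, the fatty part of endotoxin, 5 of 6 were detected. They included the lipid transfer protein Pltp at 2.28 ± 0.14, the deacylase Aoah at 0.08 ± 0.12 and Cd44 at 4.26 ± 0.10. A listed gene, Cd44 among them, need not bind lipid A. Bpi, a neutrophil protein of the same family as Lbp, was well above background on no array.

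**Figure D4:**
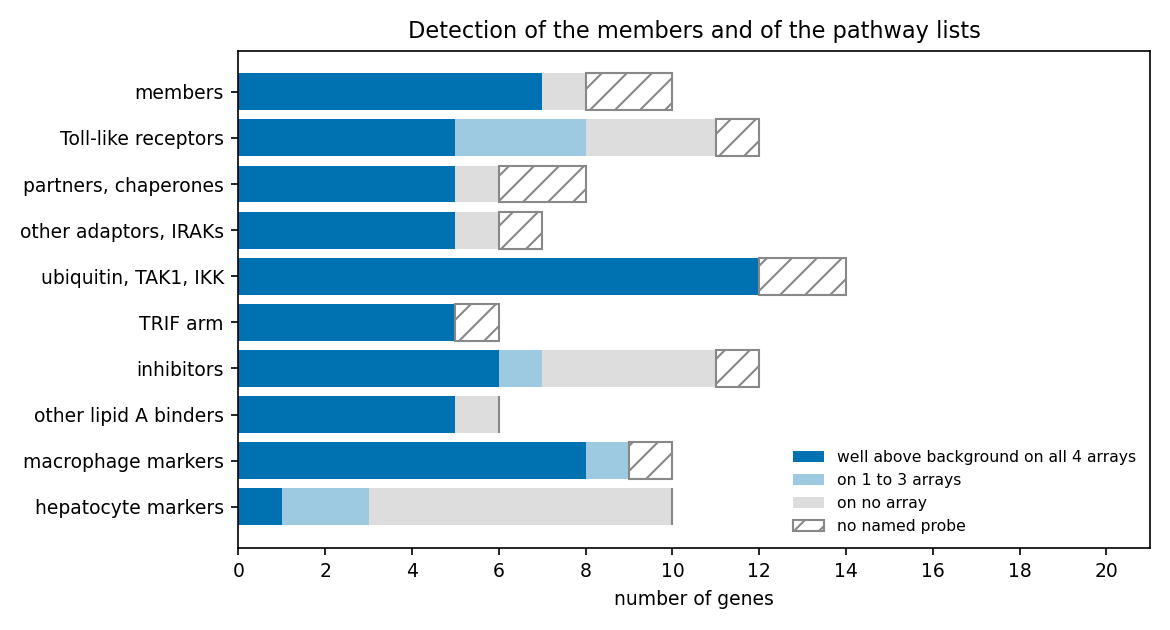
Number of genes (horizontal axis) in each list that were well above background on all 4 arrays, on 1 to 3 arrays or on none, or that had no named probe. Of the members 7 of 8 measured genes were detected, and of the hepatocyte markers 1 of 10.

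The 3 genes whose pattern over the 4 arrays was most like that of Cd14, of 4384 detected genes with at least the median spread, were Brd2, C6h14orf28 and Lrrc61, with root mean square differences of deviations of 0.02, 0.02 and 0.03 on the log2 scale. Brd2 read -0.30 on replicate 1 and 0.70, 0.50 and 0.45 on the others. By the same rule Or4k48b, Nlrx1 and Gng7 came out for Myd88, each at 0.08. The limit on spread kept out genes that vary as little as Myd88 itself, and Irak4, a member with less spread, lay closer (0.07). Among the members, Ly96 and Irak4 were closest to each other (0.05) and Irak1 and Traf6 farthest apart (0.63). With 4 arrays many genes share a pattern, so these are descriptions only.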

How the data were processed

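Total RNA of 4 replicates (100 ng each, integrity number above 7.5) was labelled with Cy3 and hybridised to 4 single-colour Agilent arrays, per the labels' protocols. Per the submitters' processing notes, the software was Agilent Feature Extraction 11.0.1.1. The authors deposited, per the file headers, linear intensity values for every spot (a processed signal that the software had corrected for background, and median signals) with quality flags. Arrays were not scaled to each other. The array annotation is on build rn4, so no coordinates of probes are given.

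Control spots (4259) and outlier spots (440 to 1206 per array) were left out, and saturation was flagged nowhere. Replicate spots were averaged as log2 values, each array's 75th percentile over 45280 probes was subtracted, and a gene's level is the mean of its detected probes. Unversioned accessions matched to RefSeq symbols (GRCr8) named 20990 probes and left 24290 unnamed. The files hold no gene name column. Detection against negative controls used limma 3.58.1 in R 4.3.3 (robust, with trend). Its prior degrees of freedom were infinite, so its p-values take the spread from all probes. In simulated data it recovered 42% of 50 probes placed 0.5 log2 units above the threshold, 94% at 1 and 100% at 2 and at 4, among 45280 probes. The simulation drew noise for each probe independently and put probes without signal at -1. The real arrays differ in brightness across all probes, and Lbp lay at -0.09, so recovery in the real data may differ. Members, lists and rules were chosen with earlier results of these data known. Named were all members, the first 3 detected and first 2 undetected genes of each pathway list, markers by list order, and the 3 genes most like Cd14 and Myd88. The labels call the replicates biological without naming separate cultures, so the spread between them may be partly technical. The number of arrays limits the precision.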

Additional observations from a re-analysis of the deposited data

Results flagged for a closer look

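Tbk1, the kinase of the TRIF arm, lay 0.47 log2 units above the mean of the other arrays on replicate 2 (-1.27 against -1.77, -1.76 and -1.69), and its gap to the nearest array was 0.834 of the whole range, above Dixon's 95% critical value for 4 samples. Of 28 genes examined, 7 of them members, Tbk1 was the 1 that passed. Chance flags about 1 in 20 groups, and 8.41% of all detected genes passed. Neither Cd14 nor Traf6 did (0.714 and 0.752 of the range).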

How the results depend on the processing

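The number of members detected (7) and the number above negative controls (7) were the same under every alternative run: the positive-and-significant flag, at least 3 arrays, the first probe, the 99th percentile of negative controls, limma without trend and robust fitting, and each replicate left out. In that plainer limma fit the largest adjusted p among the 7 was 6.06e-05, that of Traf6. The members' median SD (0.08) was 0.20 under normexp on median signals, 0.13 under quantile normalization and 0.15 with the percentile over detected probes, and between 0.093 and 0.102 with a replicate left out. The median deviation of replicate 1 (-0.15) was -0.21 under quantile normalization and -0.24 with the percentile over detected probes. The median level (1.83) was 1.52 under normexp and -1.25 with the percentile over detected probes, which changes the reference only. Small deviations of replicate 1 changed sign: that of Myd88 to 0.081 under normexp, that of Irak1 to -0.050 with the percentile over detected probes and -0.083 on the first probe, and that of Irak3 to 0.051 without replicate 2 (range over replicates left out -0.042 to 0.051). The cause was not tested. Cd14 kept its direction under every alternative (-0.93 to -0.73), and so did Traf6 (-1.48 to -0.37). Normexp was planned on mean signals, which the files do not hold for spots, and ran on medians with an added constant of 50. No paired analysis was possible because there was 1 group. Dim spots such as those of Traf6 and Irak4 limit what these arrays show.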
